A study of Mus musculus with 56 samples.

Results

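Visceral adipose tissue (VAT) was examined for 10 genes of the endoplasmic reticulum (ER) that fold secreted proteins or answer a folding load: Hspa5, Hsp90b1, Pdia4, Sdf2l1, Creld2, Manf, Dnajb9, Dnajb11, Herpud1 and Xbp1. They were chosen by symbol with earlier results of these data known, so member counts beside shares of all genes are a description. All 10 were found among the 25939 genes of the deposited RNA-seq table and passed the filter on low values that left 15731 genes for testing. The table holds 56 libraries, each from 1 mouse, with 4 mice at each of 7 zeitgeber times (ZT0, 4, 8, 12, 16, 20 and 24, where ZT0 is lights-on) under each of 2 feeding regimens. All mice were female C57BL/6J, 9 weeks old, kept in 12 h of light and 12 h of darkness and held on their regimen for 7 days. Under nighttime-restricted feeding (NRF, the reference) food was given in the dark phase, from ZT12 to ZT24, and under daytime-restricted feeding (DRF) in the light phase, from ZT0 to ZT12. The study asked how inverting the feeding time shifts daily rhythms in peripheral tissues, and the comparisons below ask it of these genes.

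Proteins that enter the secretory pathway are folded in the ER lumen by chaperones. Hspa5 (BiP) is an Hsp70-type chaperone and Hsp90b1 (GRP94) an Hsp90-type chaperone, Dnajb9 (ERdj4) and Dnajb11 (ERdj3) are J-domain partners of Hspa5, Sdf2l1 works with Dnajb11, Pdia4 is a protein disulfide isomerase, Creld2 binds such isomerases, and Manf is a small secreted ER protein that binds Hspa5. When unfolded protein accumulates, the sensors ATF6, IRE1 and PERK start the unfolded protein response, which raises the mRNAs of chaperones and of degradation factors such as Herpud1. IRE1 acts by splicing the mRNA of the transcription factor Xbp1, and gene-level values such as these hold the sum of its spliced and unspliced forms. Adipocytes secrete large amounts of adiponectin, leptin and adipsin through this pathway.

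Recovered reads ran from 30719070 to 40682390 per library, and the medians were 34576703 for DRF and 35411030 for NRF. Values are given as CPM, the read count scaled to the library size, and differences on the log2(CPM + 1) scale, on which the change of genes at low levels is understated. The 6 adipocyte markers (Adipoq, Plin1, Cidec, Lep, Fabp4 and Cfd) summed to at least 10838 CPM in every library, with a median of 29716 CPM. The lowest sum was in a DRF library of ZT4 or ZT8, times that enter the DRF contrast of fed and unfed mice. In DRF ZT0 replicate 4 and DRF ZT8 replicate 1 the 7 uterine and oviduct epithelium markers summed to 5430 and 648 CPM, against a median of 77.8 CPM over all libraries, so results that use ZT0 or ZT8 under DRF are also given without both libraries where a call changed. Of 8 markers of exocrine pancreas, a tissue rich in ER chaperones, 4 were in the table and summed to 5.52 to 34.1 CPM (medians of 12.1 under NRF and 22.1 under DRF), with Cpa1, Cpb1 and Ctrb1 at a median under 0.1 CPM. The 7 plasma cell markers summed to a median of 215 CPM (136 to 356) under NRF and 146 CPM (95.1 to 306) under DRF.

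In GRCm38 coordinates, Hspa5 lies at chr2:34771970-34777547, Hsp90b1 at chr10:86690209-86705509, Pdia4 at chr6:47796141-47813430 and Sdf2l1 at chr16:17130138-17132383. Creld2 lies at chr15:88819646-88826683, Manf at chr9:106838312-106891979 and Dnajb9 at chr12:44205559-44210326. Dnajb11 lies at chr16:22857845-22879634, Herpud1 at chr8:94386438-94395377 and Xbp1 at chr11:5520659-5525893. Exons of Hsp90b1, Manf and Dnajb9 overlap exons of other genes on the opposite strand (1810014B01Rik, 4930524O07Rik with Dcaf1, and Mir5627), and those of Hsp90b1, Pdia4 and Manf overlap genes on the same strand, so a part of their reads could belong to a neighbour. Whether the counting used strand is not given in the sources used here.

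The RefSeq promoters (GRCm38.p6, 250 bases before to 50 after the start) of 9 members were searched on both strands for 3 elements known from unfolded protein response genes, and 5 members held a match. The ER stress element (ERSE, CCAAT and CCACG with 9 bases between them) was found in Hspa5, Hsp90b1 and Creld2 and in 0.119% of all 32851 promoters, and the related ERSE-II (ATTGG and CCACG with 1 base between them) in Dnajb11 and Herpud1 and in 0.0365% of all. The core of the unfolded protein response element (TGACGTGG), found in 0.676% of all, was not in these windows. None of the 3 was matched in Pdia4, Sdf2l1, Dnajb9 or Xbp1, and Manf was not searched. The matching stretches are shown with capitals for the element and a reverse-complement match in Creld2 and at the downstream site of Hsp90b1. Members with a match had both of the daily patterns described below, and so did members without one (Sdf2l1 and Dnajb9). The part of the elements in these patterns was not tested. Where an annotated exon covers the match (Hspa5 and Dnajb11) 30 bases are given. In the order printed they are chr2:34772020-34772049 on the plus strand, chr10:86705510-86705694 on the minus strand, and, all on the plus strand, chr15:88819396-88819645, chr16:22857843-22857872 and chr8:94386179-94386428.
Hspa5: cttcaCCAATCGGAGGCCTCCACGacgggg
Hsp90b1: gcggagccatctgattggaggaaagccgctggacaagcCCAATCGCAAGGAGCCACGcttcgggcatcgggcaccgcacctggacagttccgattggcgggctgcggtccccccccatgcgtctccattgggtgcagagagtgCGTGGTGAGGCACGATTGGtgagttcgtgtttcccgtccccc
Creld2: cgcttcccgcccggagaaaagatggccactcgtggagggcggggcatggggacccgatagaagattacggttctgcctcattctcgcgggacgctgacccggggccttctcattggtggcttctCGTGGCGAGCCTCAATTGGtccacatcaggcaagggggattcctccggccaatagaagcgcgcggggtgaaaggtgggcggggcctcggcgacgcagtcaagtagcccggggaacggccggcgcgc
Dnajb11: ccggcggcgATTGGCCCACGcctggctgct
Herpud1: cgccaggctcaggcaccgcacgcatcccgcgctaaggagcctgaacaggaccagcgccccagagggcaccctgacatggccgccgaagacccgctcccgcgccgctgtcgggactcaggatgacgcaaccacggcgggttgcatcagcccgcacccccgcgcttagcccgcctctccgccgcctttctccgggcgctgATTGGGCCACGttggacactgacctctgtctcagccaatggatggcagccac

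Per kilobase of merged exon length, Hspa5 was the most abundant member at 95.3 ± 26.9 CPM (SD over 56 libraries), followed by Xbp1 at 66.4 ± 13.3 and Hsp90b1 at 61.3 ± 8.27. Pdia4 followed at 35.0 ± 5.68, Herpud1 at 23.8 ± 5.20, Dnajb9 at 22.1 ± 4.44 and Dnajb11 at 17.6 ± 2.21. The lowest levels per kilobase were those of Creld2 at 13.6 ± 3.60, Manf at 11.4 ± 3.03 and Sdf2l1 at 11.3 ± 3.87. Xbp1 and Hsp90b1, Herpud1 and Dnajb9, Creld2 and Manf, and Manf and Sdf2l1 are neighbours in this order whose means lay closer than either SD.

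Under NRF, Hspa5 was low late in the light phase and rose after ZT12, when food was given and the dark phase began. At ZT8 the mice had 228, 227, 234 and 260 CPM and at ZT12, as food arrived, 288, 239, 292 and 284 CPM. At ZT16 they had 466, 500, 458 and 509 CPM and at ZT20 509, 600, 551 and 531 CPM. Every mouse at ZT16 and ZT20 was above every mouse at ZT8 and ZT12, and the ZT20 mean was 2.31-fold the ZT8 mean. After the food hours the level stayed high, with 470, 472, 577 and 436 CPM at ZT0, and stood at 459, 299, 366 and 355 CPM at ZT4.

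Under DRF the same gene was highest at ZT4, early in the food hours, and lower again at ZT8. At ZT0, as food arrived, the mice had 238, 289, 264 and 346 CPM, and at ZT4 550, 545, 561 and 683 CPM. The ZT4 mean was the highest of Hspa5 among the 14 VAT groups (585 ± 65.9 CPM, SD, n = 4). At ZT8, still within the food hours, the values were 304, 385, 456 and 366 CPM. It then stood at 397, 393, 382 and 477 CPM at ZT12 and at 432, 417, 479 and 494 CPM at ZT16, in the dark and without food. At ZT24 the values were 268, 266, 286 and 296 CPM, all below those of NRF mice at the same time (426, 508, 511 and 508 CPM). Hspa5 thus had a single broad maximum under NRF and a sharp maximum at ZT4 with a lower one at ZT16 under DRF.

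**Figure D1:**
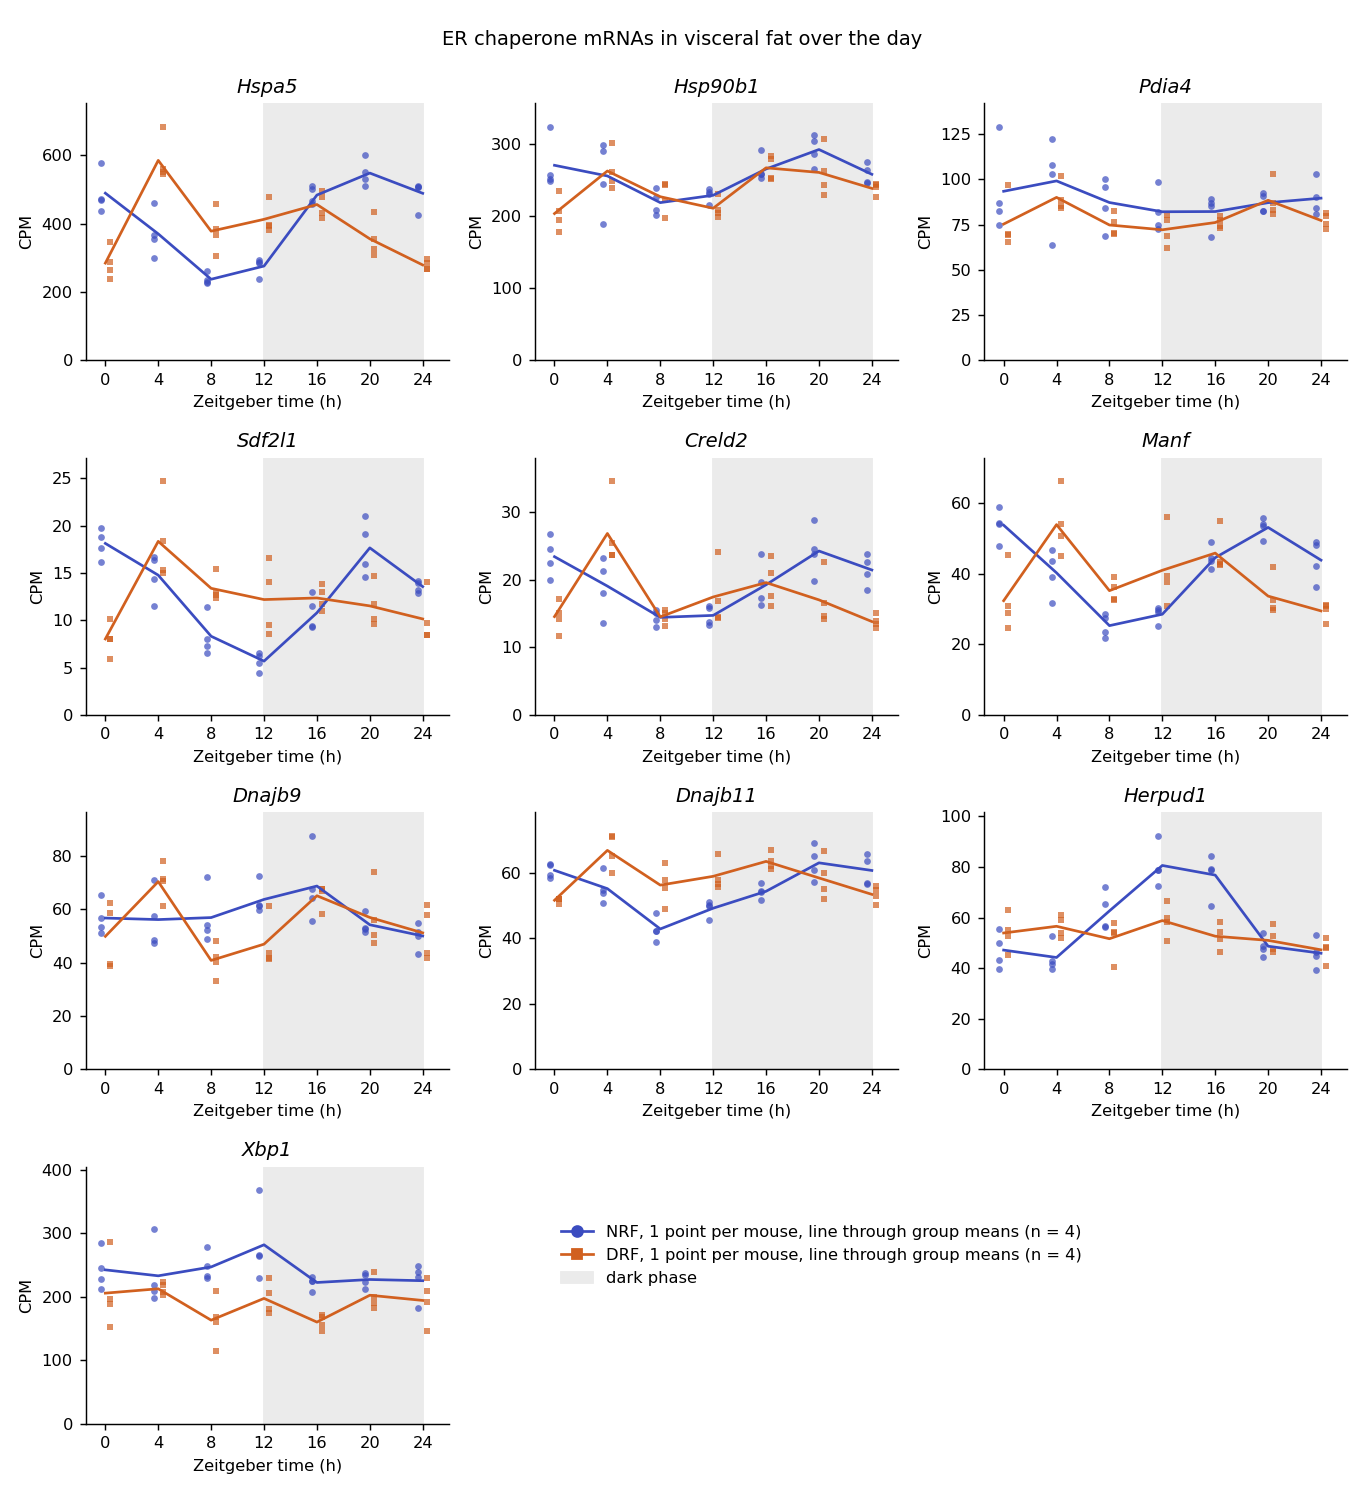
CPM of each member (vertical axes, starting at 0) against zeitgeber time in hours, with 1 point per mouse and lines through the means of 4 mice for NRF (blue circles) and DRF (orange squares); the dark phase is shaded. Hspa5, Manf, Creld2 and Sdf2l1 have their highest DRF mean at ZT4 and their lowest NRF means at ZT8 or ZT12, whereas Herpud1 has its highest NRF mean at ZT12 and Xbp1 lies lower under DRF at every time.

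Manf, Creld2 and Sdf2l1 had profiles close to that of Hspa5. Manf had 23.4, 27.3, 21.7 and 28.6 CPM at NRF ZT8 and 53.5, 55.6, 49.1 and 53.9 CPM at NRF ZT20, without overlap. Under DRF it rose from 24.5, 30.7, 28.7 and 45.3 CPM at ZT0 to 50.5, 44.9, 53.9 and 66.1 CPM at ZT4, where 1 ZT0 mouse reached the range of ZT4. That mouse was replicate 4, the library with the high uterine and oviduct markers.

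Sdf2l1 had the largest swing under NRF, 3.19-fold between its highest and lowest group means. It had 6.18, 4.45, 5.50 and 6.57 CPM at NRF ZT12 and 17.6, 19.8, 16.2 and 18.8 CPM at NRF ZT0. At NRF ZT24, the same clock time in other mice, it had 12.9, 13.2, 14.2 and 13.9 CPM, above every mouse of ZT12 and below every mouse of ZT0. Under DRF it rose from 5.95, 8.04, 7.97 and 10.1 CPM at ZT0 to 15.0, 15.3, 18.4 and 24.7 CPM at ZT4. The ZT0 and ZT4 mice under DRF did not overlap.

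Creld2 had 14.1, 15.6, 13.0 and 15.1 CPM at NRF ZT8 and 23.9, 28.8, 19.9 and 24.5 CPM at NRF ZT20. Its DRF maximum at ZT4 (23.7, 23.7, 25.5 and 34.6 CPM) was followed by 15.1, 15.5, 14.2 and 13.2 CPM at ZT8. No ZT8 mouse reached the ZT4 range, and the ZT8 mice lay within the range of ZT0 (11.7, 15.1, 14.2 and 17.1 CPM) although food was still present.

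Dnajb11 followed the same times with a smaller swing, 1.47-fold under NRF and 1.30-fold under DRF. Its NRF values were 42.3, 39.0, 47.9 and 42.4 CPM at ZT8 and 57.4, 69.1, 60.8 and 65.1 CPM at ZT20. Under DRF it had 52.2, 50.4, 52.0 and 52.1 CPM at ZT0 and 60.0, 65.3, 71.1 and 71.4 CPM at ZT4. Hsp90b1 had a smaller swing than Hspa5, and its NRF means ran from 219 ± 16.6 CPM at ZT8 to 293 ± 21.2 CPM at ZT20, and its DRF means from 204 ± 23.9 CPM at ZT0 to 267 ± 17.3 CPM at ZT16, with 263 ± 27.5 CPM at ZT4.

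Herpud1, which helps to clear misfolded proteins from the ER, and Dnajb9 had other hours. Herpud1 under NRF was highest at ZT12, as food arrived, with 92.3, 72.6, 78.8 and 78.6 CPM, and stayed high at ZT16 with 79.3, 84.3, 78.9 and 64.6 CPM. By ZT20 it was at 54.0, 44.5, 47.4 and 48.7 CPM, below every mouse of ZT12 and ZT16, while Hspa5 was at its maximum. Under DRF the Herpud1 means stayed between 47.2 ± 4.67 and 58.8 ± 6.47 CPM, and the mice of the highest and lowest groups overlapped. Dnajb9 under DRF had maxima at ZT4 (70.8, 61.1, 71.5 and 78.3 CPM) and ZT16 (58.3, 67.0, 67.5 and 67.7 CPM) with a low of 33.2 to 48.0 CPM at ZT8 between them, while its highest NRF mean, 68.8 ± 13.5 CPM at ZT16, was 1.37-fold its lowest.

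Pdia4 and Xbp1 had highest means 1.21-fold and 1.27-fold their lowest under NRF and 1.25-fold and 1.33-fold under DRF. Pdia4 means ran from 82.1 ± 11.6 to 99.1 ± 24.9 CPM under NRF and from 72.1 ± 8.26 to 90.0 ± 8.31 CPM under DRF. Xbp1 means ran from 223 ± 10.3 to 282 ± 59.8 CPM under NRF and from 160 ± 12.3 to 213 ± 9.78 CPM under DRF. For both genes the mice of the highest and lowest groups overlapped under NRF and did not under DRF. Groups compared by overlap here and above were picked after their values were seen, which favours separation. How many of all genes separate in this way was not counted, so overlap is a description.

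At single times the regimens were compared with limma (14 group means, 1 shared spread, Benjamini-Hochberg adjustment over 15731 genes, adjusted p under 0.05). In bulk tissue, fewer cells of a type and less RNA per cell cannot be told apart. At ZT0, when NRF mice had finished eating and DRF mice were about to start, 6 of 10 members were lower under DRF, against 9.52% of all genes tested. Sdf2l1 was 2.14-fold lower (log2 -1.10 ± 0.17 SE, adjusted p = 1.37e-05) and Hspa5 1.72-fold lower (log2 -0.79 ± 0.12, adjusted p = 6.12e-06), followed by Manf at log2 -0.75, Creld2 at -0.66, Hsp90b1 at -0.41 and Dnajb11 at -0.23. The ZT0 call of Dnajb11 was lost without the mice of replicate number 2, 3 or 4 (limma adjusted p = 0.142, 0.0972 and 0.0850) and that of Hsp90b1 without number 1 (limma adjusted p = 0.108). Without number 1 Herpud1 was called higher at ZT0 (log2 0.35, limma adjusted p = 0.0183), against 0.19 with all mice. Without the libraries with high uterine markers, Pdia4 (log2 -0.42, limma adjusted p = 0.0399) and Xbp1 (log2 -0.44, limma adjusted p = 0.0223) also passed at ZT0.

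At ZT4 the order was turned, and 5 members were higher under DRF, against 18.3% of all genes. They were Hspa5 (log2 0.67 ± 0.12, limma adjusted p = 2.48e-05), Creld2 (0.48), Manf (0.41), Herpud1 (0.35) and Dnajb11 (0.27). This count changed with the library size and with the mice left out. With total recovered reads as library size the median of all genes at ZT4 moved by -0.16 on the log2 scale, the share of calls that were higher fell from 53.5% to 25.2%, and Hspa5 was the 1 member called. The count was 2 without the mice of replicate number 2, 3 without number 3 and 1 without number 4.

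At ZT8, 4 members were higher under DRF (15.9% of all genes) and 2 lower (12.3%). Hspa5 (log2 0.66), Sdf2l1 (0.65), Manf (0.47) and Dnajb11 (0.38) were the higher ones, and Xbp1 (-0.62) and Dnajb9 (-0.47) the lower ones. Dnajb9 no longer passed at ZT8 without the libraries with high uterine markers (limma adjusted p = 0.0635), nor without the mice of replicate number 1, 2 or 4 (limma adjusted p = 0.0837, 0.0680 and 0.129). Without number 3 the higher members at ZT8 were 2, as Sdf2l1 (limma adjusted p = 0.0707) and Manf (limma adjusted p = 0.104) were lost, and Manf was also lost without number 1 (limma adjusted p = 0.0919). At ZT12, where NRF mice were about to start eating, 4 members were higher under DRF (15.2% of all genes), with Sdf2l1 at log2 0.95 ± 0.17, Hspa5 at 0.58, Manf at 0.48 and Dnajb11 at 0.25. In the same comparison 3 members were lower (12.2% of all genes), namely Xbp1 (-0.50), Herpud1 (-0.45) and Dnajb9 (-0.45). Leaving out the mice of replicate number 1, 2 or 3 ended the ZT12 calls of Xbp1 (limma adjusted p = 0.137, 0.0632 and 0.0554) and Dnajb9 (limma adjusted p = 0.188, 0.133 and 0.0659) and left Herpud1 as the 1 lower member. Without number 4 the higher calls of Manf (limma adjusted p = 0.0657) and Dnajb11 (limma adjusted p = 0.0927) were lost, and that of Manf also without number 2 (limma adjusted p = 0.0804). The NRF ZT12 mouse of number 1 had the highest Xbp1 of all 56 (368 CPM, others of its group 229 to 266) and the highest sum of liver markers (8271 CPM, median of all libraries 2526), whose part in the ZT12 differences was not tested.

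At ZT16 Dnajb11 was higher (log2 0.22; 8.91% of all genes were higher), and Herpud1 (-0.54) and Xbp1 (-0.47) were lower (9.17% of all genes). Dnajb11 did not pass at ZT16 whichever of the 4 replicate numbers was left out, nor did Xbp1 without number 2 or 3. For Hspa5, Creld2 and Manf the ZT16 differences were -0.09, 0.02 and 0.03. At ZT20, 4 members were lower under DRF, against 11.8% of all genes: Manf (log2 -0.66), Hspa5 (-0.63), Sdf2l1 (-0.58) and Creld2 (-0.50). Without number 1 Sdf2l1 (limma adjusted p = 0.0503) and Creld2 (limma adjusted p = 0.0858) no longer passed at ZT20, nor did Sdf2l1 without number 4 (limma adjusted p = 0.0503). At ZT24, 3 members were lower, against 9.87% of all genes: Hspa5 (-0.80), Creld2 (-0.60) and Manf (-0.55). ZT0 and ZT24 are the same clock time in separate mice, and Hspa5, Creld2 and Manf were lower under DRF in both. The other 3 members lower at ZT0 did not pass at ZT24, where Sdf2l1 stood at -0.41 (limma adjusted p = 0.0826), Dnajb11 at -0.18 (limma adjusted p = 0.0778) and Hsp90b1 at -0.11 (limma adjusted p = 0.475).

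**Figure D2:**
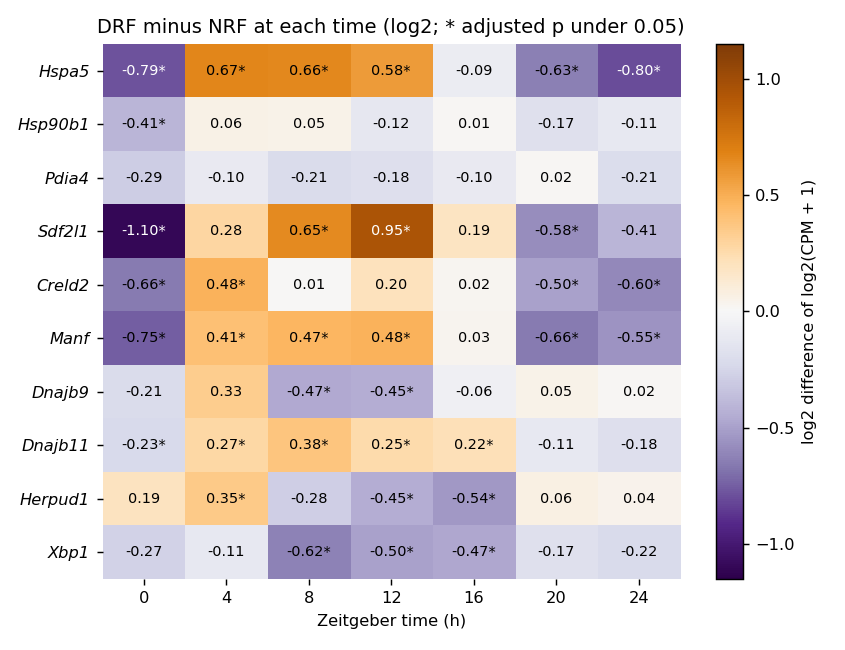
log2 difference DRF minus NRF (colour and printed value) for each member (rows) at each zeitgeber time in hours (columns), from limma on 4 mice per group; an asterisk marks an adjusted p under 0.05. Hspa5 and Manf are lower under DRF at ZT0, ZT20 and ZT24 and higher at ZT4, ZT8 and ZT12, while Xbp1 is below 0 in all columns.

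To ask how each gene differed between hours with and without food, the mean of the 2 times inside the food hours was compared with the mean of the 2 times 12 h away. Within a regimen these hours also differ in light phase and clock time. Food, light and clock time cannot be told apart in this contrast, here and in the gene lists below. Under NRF (ZT16 and ZT20 minus ZT4 and ZT8) 7 of 10 members were higher in the fed mice, against 19.6% of all genes, and none was lower. Hspa5 was 1.74-fold higher (log2 0.80 ± 0.08 SE, limma adjusted p = 2.27e-10) and Manf 1.52-fold higher (0.60 ± 0.10, limma adjusted p = 4.98e-06). Creld2 (0.36), Sdf2l1 (0.30), Dnajb11 (0.26), Hsp90b1 (0.25) and Herpud1 (0.22) rose less. The fed means of Herpud1 were 76.8 CPM at ZT16 and 48.7 CPM at ZT20 and its unfed means 44.2 CPM at ZT4 and 62.6 CPM at ZT8, so that ZT20 lay below ZT8. Dnajb9 (0.12), Xbp1 (-0.08) and Pdia4 (-0.11) did not pass. The median of the members was 0.26, beside -0.01 over all genes. With total recovered reads as library size 4 remained past the threshold, since Hsp90b1, Sdf2l1 and Herpud1 were lost, and without the mice of replicate number 2 Hspa5, Manf and Dnajb11 remained. The call of Sdf2l1 was lost whichever replicate number was left out (limma adjusted p from 0.0682 to 0.211) and without the filter on low values (limma adjusted p = 0.0723), and that of Herpud1 without number 1, 2 or 3 (limma adjusted p = 0.163, 0.133 and 0.0669). Skeletal muscle markers summed to medians of 73.0 CPM in fed and 20.3 CPM in unfed NRF mice and 40.1 and 74.1 CPM under DRF, and liver markers to 2731 and 3598 CPM under NRF and 1892 and 3169 CPM under DRF; their part in these contrasts was not tested.

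Under DRF (ZT4 and ZT8 minus ZT16 and ZT20) 2 members were higher in the fed mice, against 16.1% of all genes. They were Sdf2l1 (log2 0.36 ± 0.12, limma adjusted p = 0.0201) and Hspa5 (0.22 ± 0.08, limma adjusted p = 0.0369), and leaving out the mice of replicate number 3 or of number 4 ended both calls. The median of the members was 0.05, beside 0.02 over all genes. The difference between the regimens in this fed-unfed contrast, tested directly, was lower under DRF for 4 members, against 10.4% of all genes: Hspa5 (-0.58 ± 0.12, limma adjusted p = 3.04e-04), Manf (-0.45), Hsp90b1 (-0.36) and Dnajb11 (-0.26). For Sdf2l1 the difference was 0.06 ± 0.17. Without the mice of replicate number 2, Hspa5 alone of the 4 passed. Total recovered reads as library size ended the calls of Hsp90b1 (limma adjusted p = 0.0818) and Manf (limma adjusted p = 0.0676), and leaving out number 4 that of Dnajb11 (limma adjusted p = 0.0661).

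The level after the first 4 h of food was compared with that at the start in each regimen. Food began with the change of light in both regimens, so food, light and clock time cannot be told apart here either. Under NRF (ZT16 minus ZT12) 3 of 10 members were higher, against 7.15% of all genes: Sdf2l1 (log2 0.82 ± 0.17), Hspa5 (0.81 ± 0.12) and Manf (0.63 ± 0.14). Xbp1 (-0.32) and Herpud1 (-0.07) were below 0 and did not pass. Under DRF (ZT4 minus the mean of ZT0 and ZT24) 7 were higher, against 17.1% of all genes, and the values of all 10 were above 0. Hspa5 was 2.07-fold higher (1.05 ± 0.10, limma adjusted p = 1.58e-10), followed by Sdf2l1 (0.95), Creld2 (0.87), Manf (0.79), Dnajb9 (0.49), Dnajb11 (0.34) and Hsp90b1 (0.25). The median of the members was 0.42 under DRF and 0.18 under NRF, beside 0.00 over all genes in each. Total recovered reads as library size lowered the median of all genes by 0.11 in the DRF contrast and ended the call of Hsp90b1, which was also lost without the mice of replicate number 1, 3 or 4 (limma adjusted p = 0.0801, 0.0978 and 0.138). Under NRF the onset call of Manf was lost without number 2 (limma adjusted p = 0.0595). The DRF contrast has 8 mice before food and the NRF contrast 4, and whether the rises differed between the regimens was not tested.

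**Figure D3:**
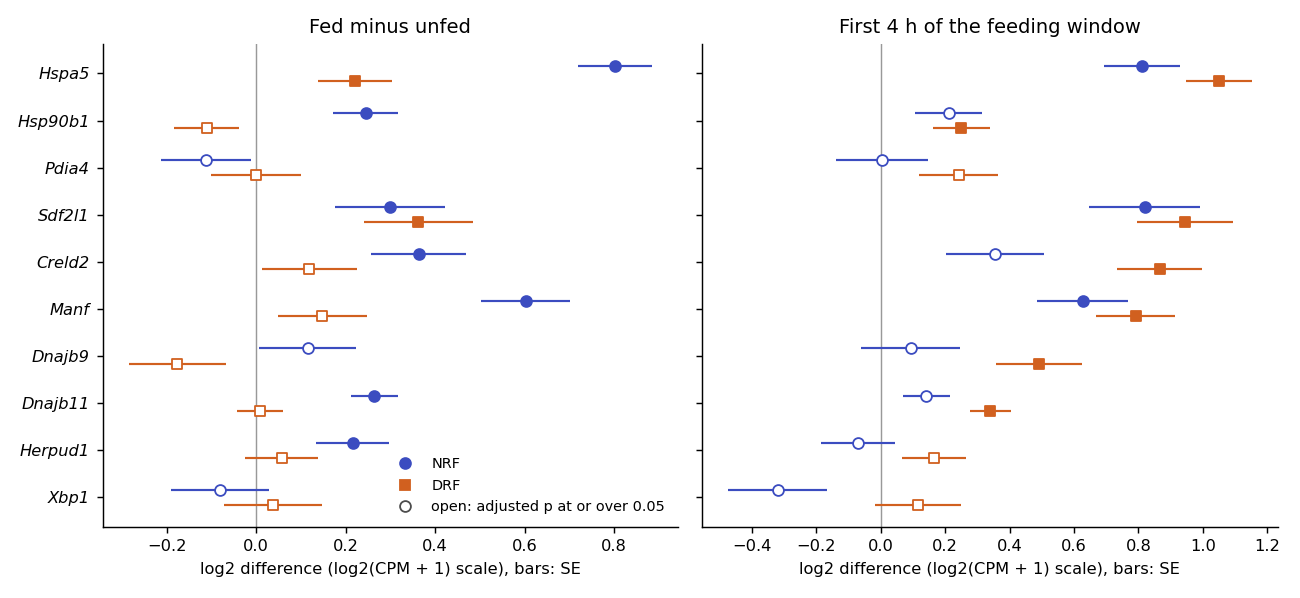
log2 differences with SE (horizontal axes) for each member under NRF (blue circles) and DRF (orange squares), for fed minus unfed times on the left and for the first 4 h of food on the right; open symbols did not reach an adjusted p under 0.05 in limma. On the left Hspa5 and Manf stand at 0.80 and 0.60 under NRF but at 0.22 and 0.15 under DRF, and on the right Hspa5 stands at 0.81 and 1.05.

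Counted in hours from the start of food, Hspa5 overlapped between the regimens at the start, was higher in DRF mice at 4 h and higher in NRF mice at 8 h. It had 276 ± 24.5 CPM under NRF and 282 ± 31.8 CPM under DRF at the start (n = 4 and n = 8), and 483 ± 25.0 and 585 ± 65.9 CPM after 4 h. After 8 h NRF mice were at 548 ± 39.0 CPM and DRF mice at 378 ± 62.3 CPM. The mice of the regimens did not overlap at 4 h (458 to 509 CPM under NRF and 545 to 683 CPM under DRF) or at 8 h (509 to 600 and 304 to 456 CPM). The gap at 4 h depends on the use of the effective library size. That size was 32824520 in DRF ZT4 replicate 3, with 34316204 recovered reads. In NRF ZT16 replicate 4 it was 38312593, with 35753685 recovered reads. Eating times within the food hours were not measured in these libraries. After 20 h the order was turned, with 237 ± 15.4 CPM under NRF and 355 ± 55.4 CPM under DRF. Manf mice overlapped at 4 h (41.4 to 48.8 CPM under NRF and 44.9 to 66.1 CPM under DRF), and the means were 53.0 ± 2.76 CPM under NRF and 35.1 ± 3.13 CPM under DRF after 8 h, and 25.2 ± 3.25 and 33.6 ± 5.66 CPM after 20 h. These aligned values are a description with no test.

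**Figure D4:**
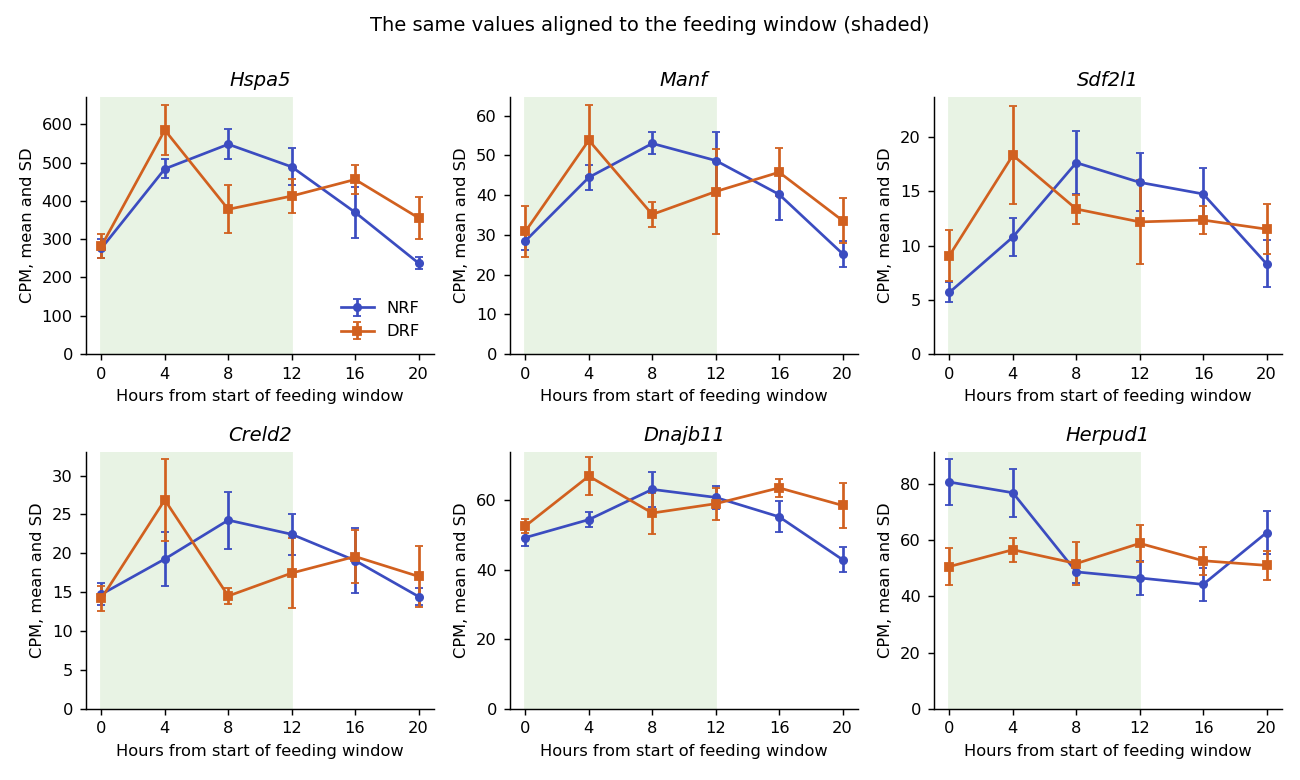
Mean and SD of CPM (vertical axes, from 0) of 6 members against hours from the start of the feeding window (shaded, 12 h), for NRF (blue circles) and DRF (orange squares), with 4 mice per point, or 8 where ZT0 and ZT24 coincide. Hspa5, Manf, Sdf2l1 and Creld2 have higher means at 4 h than at the start in both regimens. The mean of Hspa5 is 483 CPM under NRF and 585 CPM under DRF at 4 h, and 548 and 378 CPM at 8 h.

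Rhythms were tested in each regimen with a MetaCycle-type test (JTK_CYCLE and Lomb-Scargle p combined, adjusted over all genes). A 24-h rhythm was found under NRF for 8 of 10 members, against 52.1% of all genes, with adjusted p from 4.74e-07 for Hspa5 to 0.0416 for Dnajb9 by this test. Pdia4 (adjusted p = 0.334, same test) and Xbp1 (adjusted p = 0.746, same test) did not pass, and the Dnajb9 call was lost in 6 of 11 alternatives. Under DRF none of the 10 passed the MetaCycle-type test, against 34.0% of all genes, and Hspa5 had the lowest adjusted p (0.204). Without adjustment none fell under 0.05 either, against 43.3% of all genes, and JTK_CYCLE alone called none. With total recovered reads as library size Dnajb11 passed (adjusted p = 0.0457 in the MetaCycle-type test), and the limma fit of 24-h and 12-h terms together called a 24-h term under DRF for Hspa5 (adjusted p = 0.0226, 36.6% of all genes).

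Phases were read for the 8 members with a called rhythm under NRF. Hspa5, Hsp90b1, Creld2, Manf, Dnajb11 and Sdf2l1 peaked late in the night, at ZT20.7 ± 0.47 for Hspa5, 20.5 ± 0.97 for Hsp90b1, 21.6 ± 0.86 for Creld2, 21.2 ± 0.57 for Manf, 21.4 ± 0.56 for Dnajb11 and 23.0 ± 0.56 for Sdf2l1 (h ± SE of the cosine fit). Herpud1 at 13.1 ± 0.43 and Dnajb9 at 13.7 ± 1.94 peaked near lights-off. Herpud1 carries the ERSE-II element printed above, as does Dnajb11, which peaked late in the night. Sdf2l1 and Dnajb9, with peaks at ZT23.0 and ZT13.7, had no match to any of the elements searched. The part of the elements in these phases was not tested. No phase shift was read, because no member was rhythmic under both regimens by the MetaCycle-type test (23.4% of all genes were).

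The 24-h amplitude was smaller under DRF in the estimates of 9 members. Under NRF and DRF it was 0.61 ± 0.08 and 0.26 ± 0.07 for Hspa5, 0.65 ± 0.09 and 0.26 ± 0.09 for Sdf2l1, 0.52 ± 0.08 and 0.18 ± 0.07 for Manf, and 0.44 ± 0.0450 and 0.07 ± 0.0458 for Herpud1 (log2, SE). Over all genes 57.9% had a smaller estimate under DRF. A Wald test of the amplitude difference, adjusted over all genes, was passed by Herpud1 (adjusted p = 2.60e-04), Dnajb11 (adjusted p = 0.0237) and Hspa5 (adjusted p = 0.0476), against 2.44% of all genes with a lower amplitude under DRF. The Hspa5 call was lost in 9 of 11 alternatives, among them the one without the libraries with high uterine markers (adjusted p = 0.0820 in the Wald test), and the Dnajb11 call in 4 of 11, and a fitted amplitude under DRF is an estimate in genes with no called rhythm there. The test that the 24-h cosine and sine differ between the regimens, which needs no rhythm in either alone, was passed by 6 members, against 54.0% of all genes: Hspa5 (limma adjusted p = 3.91e-09), Sdf2l1, Manf, Herpud1, Dnajb11 and Creld2 (limma adjusted p = 0.00177). These 6 calls held in all 11 alternatives.

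A 12-h rhythm was not called for any member by the MetaCycle-type test. Without adjustment 7 members fell under 0.05 in that test under DRF, against 9.34% of all genes, and none under NRF, against 2.14%. Hspa5 had the lowest adjusted p under DRF (0.0778 in the MetaCycle-type test), where 13 genes (0.0826%) passed. With no filter on low values 3 genes passed. The number was 0 without the libraries with high uterine markers, without the ZT24 libraries and with total recovered reads as library size. It was also 0 whichever replicate number was left out. The limma fit of 24-h and 12-h terms called the 12-h term under DRF for Hspa5 (amplitude 0.39, adjusted p = 0.00426), Manf (0.34, adjusted p = 0.0280), Creld2 (0.36, adjusted p = 0.0311) and Dnajb9 (0.33, adjusted p = 0.0311), against 1.19% of all genes. Under NRF it called none of the members, against 0.108% of all genes, and the estimate for Hspa5 was 0.14. Whether the 12-h term differed between regimens was not tested. With samples 4 h apart, a 12-h cycle has 3 points.

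Averaged over the 7 times, 5 members differed between regimens, against 37.3% of all genes. Xbp1 was 1.26-fold lower under DRF (log2 -0.34 ± 0.06, limma adjusted p = 1.31e-05), and its mean was lower at all 7 times. Pdia4 (-0.15), Creld2 (-0.15) and Hsp90b1 (-0.10) were lower and Dnajb11 (0.09) was higher. This average counts ZT0 and ZT24, the same clock time, separately. With both counted as 1 time, a weighting chosen after the data were seen in which 39.3% of all genes differed, Creld2 (-0.07, limma adjusted p = 0.376) and Hsp90b1 (-0.07, limma adjusted p = 0.150) no longer passed, Herpud1 did (-0.12, limma adjusted p = 0.0284), and Xbp1 stood at -0.35. With total recovered reads as library size 7 members were lower and 0 higher: Dnajb11 no longer passed (0.04, limma adjusted p = 0.178), while Hspa5 (-0.11, limma adjusted p = 0.0287), Dnajb9 (-0.16, limma adjusted p = 0.0147) and Herpud1 (-0.14, limma adjusted p = 0.00991) did. Leaving out the mice of replicate number 1 left Xbp1 and Dnajb11, and leaving out number 3 left Xbp1 as the 1 member called. Xbp1 is also abundant in plasma cells, whose 7 markers had a lower median sum under DRF, with overlapping ranges, as given above. The median sums were 153 and 125 CPM in fed and unfed DRF mice and 225 and 241 CPM in fed and unfed NRF mice. The part of plasma cells in the Xbp1 result was not tested. Other marker sums also differed in median between NRF and DRF, at 30449 and 26223 CPM for adipocytes, 498 and 414 for macrophages, 517 and 440 for adipose progenitors, 347 and 269 for mesothelium and 240 and 394 for blood, and their part in the mean levels was not tested.

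The other genes of ER protein folding were taken from lists that were also chosen with earlier results of these data known. Their counts stand beside these shares of all genes, as a description. Between unfed and fed mice 19.6% rose and 17.4% fell under NRF, and 16.1% rose and 13.9% fell under DRF. The fed-unfed contrast was higher under DRF for 10.6% and lower for 10.4%, and in the first 4 h of food 7.15% rose under NRF and 17.1% under DRF. Of 24 other ER folding genes, 4 rose and 2 fell between unfed and fed mice under NRF, with a list median of -0.01. Cdnf, a relative of Manf, fell most (log2 -0.75 ± 0.14, limma adjusted p = 1.82e-05), and Hyou1, an ER nucleotide exchange factor for Hspa5, and Dnajc3 rose by 0.41 and 0.38. Under DRF 4 rose and 2 fell, with Fkbp11 at 0.49, Cdnf at -0.49 and Ero1b at -0.44. The fed-unfed contrast was lower under DRF for Dnajc3 (-0.49), Hyou1 (-0.44), Uggt1 (-0.37) and Canx (-0.21) and higher for Fkbp11 (0.82) and Cnpy2 (0.40). In the first 4 h of DRF food 6 of the 24 rose, among them Hyou1 (0.59), Calr (0.46) and Canx (0.36), and in the first 4 h of NRF food 2 did, Hyou1 (0.47) and Dnajc3 (0.28).

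Of 6 sensors and proteases of the unfolded protein response, Atf6 (0.26) and Atf6b (0.33) rose in fed NRF mice, whereas under DRF Atf6b rose (0.33) and Atf6 (-0.19) and Mbtps1 (-0.13) fell. The fed-unfed difference of Atf6 was lower under DRF (-0.45 ± 0.09, limma adjusted p = 3.04e-04). Among 17 genes of ER-associated degradation 2 rose and 4 fell under NRF, with Ube2g2 at 0.50, Herpud2 at -0.28 and Selenos at -0.22, and under DRF none rose and Herpud2 fell (-0.18). Among 23 genes of translocation and signal sequence processing 1 rose under NRF, Srprb (0.17), and 3 rose under DRF, namely Spcs2 (0.23), Ssr1 (0.20) and Sec61a1 (0.20).

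Of 14 PERK and ATF4 targets 5 rose and 2 fell under NRF and 7 rose and 1 fell under DRF, with list medians of 0.09 and 0.31. Atf4 itself rose in both regimens (0.78 and 1.02), and Sesn2 fell under NRF (-0.71). Under NRF Atf5 rose by 0.57, and under DRF Ddit4 rose by 0.89 and Cebpb by 0.82. For 4 of the 14 (Ddit4, Cebpb, Sesn2 and Trib3) the fed-unfed difference was higher under DRF, and for none was it lower.

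Heat shock genes outside the ER (cytosolic chaperones, with the mitochondrial Hspd1 and Hspe1), 12 in all, had a larger list median than the ER members under NRF. All 12 rose in fed NRF mice, with a list median of 1.03, and Hsph1 (2.89 ± 0.21, limma adjusted p = 3.30e-14), Hspa8 (1.78) and Dnaja1 (1.58) were the largest. Under DRF 2 rose, Bag3 (0.49) and Dnaja1 (0.38), 1 fell, Hsp90ab1 (-0.24), and the list median was 0.17. The fed-unfed difference was lower under DRF for 8 of the 12. In the first 4 h of food 9 of 12 rose in each regimen, with medians of 1.03 under NRF and 0.49 under DRF.

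**Figure D5:**
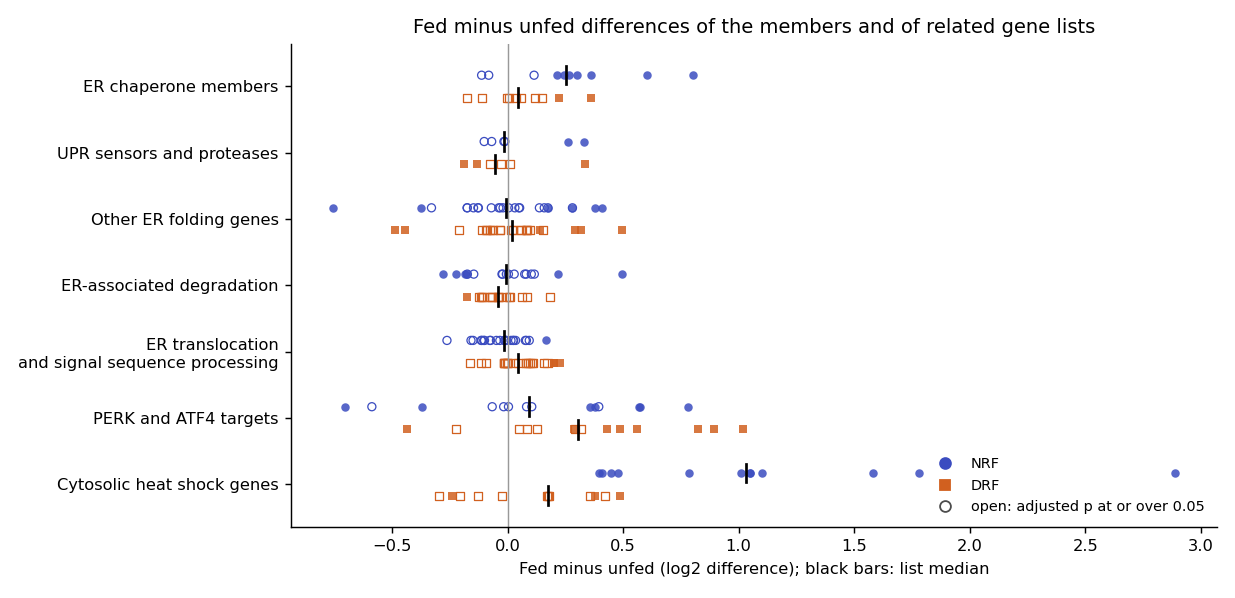
Fed minus unfed log2 differences (horizontal axis) of every gene of the 10 ER members and 6 related lists, for NRF (blue circles) and DRF (orange squares); filled symbols passed an adjusted p under 0.05 and black bars are list medians. The genes of the cytosolic heat shock list, which includes the mitochondrial Hspd1 and Hspe1, lie right of 0 under NRF with a median of 1.03. The ER members have medians of 0.26 under NRF and 0.05 under DRF.

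Over the 14 group means, Pearson's r with Hspa5 was 0.97 for Manf, 0.91 for Creld2, 0.89 for Dnajb11, 0.83 for Sdf2l1 and 0.73 for Hsp90b1. It was 0.29 for Pdia4, 0.27 for Dnajb9, -0.14 for Xbp1 and -0.22 for Herpud1. Of 10271 genes outside low levels (mean log2(CPM + 1) of at least 3), those closest to the mean standardized profile of the 10 members were Rdx (r = 0.92), Ptges3 (0.90), Canx (0.90) and Dnajc3 (0.89). Hyou1 and Calr, both at 0.87, were also among the 10 nearest, so that 4 of these 10 genes were on the list of other ER folding genes. That list held 24 of the 15731 genes tested, and its number among the 10271 ranked was not counted. The correlations are a description over group means that share libraries, depth and the effective library size.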

How the data were processed

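RNA-seq of VAT was analysed from the deposited table of 56 libraries, 1 mouse each. Per the labels and the submitters' processing notes, libraries were made with a NEBNext Ultra RNA kit, and HISAT2 2.0.5, featureCounts 1.5.0-p3 and build mm10 are named; the steps from counts to the deposited values are not given in the sources used here. The authors named the deposited values TPM, but their levels are those of a score: log2(1 + CPM) divided by exon length and rescaled per library (highest over lowest factor 1.070). The deposited score was therefore inverted to CPM and whole reads: 99.9998% of 1283646 values, and all 560 member values, lay within 0.02 of a whole read. The percentage is over genes kept because their reads came out whole. The reference exon length gave this for 25018 genes, all members among them, and a length found from the values for 877. A further 37 genes were too abundant to test and 7 were unresolved. Genes with a mean CPM of at least 0.5 (15731) were tested.

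Differences on log2(CPM + 1) were tested with limma 3.58.1 (R 4.3.3, trend) on 14 group means, with Benjamini-Hochberg adjustment over all genes tested and a threshold of 0.05. Rhythms were tested in Python 3.11.15 (numpy 2.4.6, pandas 2.3.3, scipy 1.17.1) with JTK_CYCLE and Lomb-Scargle p combined by Fisher's method, and phase and amplitude were fitted by a cosine with a Wald test. No count test was run on the recovered reads. Folds on this scale understate changes of genes at low levels.

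On simulated data (4000 genes) 198 of 200 changed mean levels, 192 of 200 changed rhythms, and 166 and 163 of 200 24-h rhythms under NRF and DRF were recovered, with 11, 9, 4 and 3 of 3600 unchanged genes called. The simulated rhythms had a fixed amplitude above every fitted member amplitude under DRF (highest 0.26, Sdf2l1). The simulated level change was also larger than that of any member (largest -0.34, Xbp1). Recovery at the effect sizes of the members was therefore not tested. The members and lists were chosen with earlier results of these data known. Named were the 10 members, the 3 largest called genes of each list in the fed-unfed contrasts, and the genes most like the members; genes named for the other list contrasts were chosen after their values were seen. Alternatives were another library size, the deposited scale, a pseudocount of 0.25, no filter, leaving out replicates or libraries, a replicate block and other rhythm tests. No 2 of 84 replicate pairs agreed within counting noise (lowest ratio to counting variance 2.07). Positions come from GENCODE (GRCm38) and promoters from RefSeq (GRCm38.p6).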

Additional observations from a re-analysis of the deposited data

Results flagged for a closer look

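In 13 of 140 combinations of a member and a group of 4 mice, 1 mouse stood apart by Dixon's ratio of its gap to the range (above its critical value), and chance gives about 1 in 20. For Hspa5 the mouse was highest at DRF ZT4 (replicate 4, 683 CPM, others 545 to 561; ratio 0.878) and at DRF ZT12 (replicate 4, 477 CPM, others 382 to 397; 0.838). It was lowest at NRF ZT12 (replicate 2, 239 CPM, others 284 to 292; 0.844) and at NRF ZT24 (replicate 1, 426 CPM, others 508 to 511; 0.961). Hsp90b1 was highest in NRF ZT0 replicate 1 (324 CPM, others 249 to 257, ratio 0.896) and NRF ZT16 replicate 2 (292 CPM, others 253 to 258, ratio 0.873).

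Pdia4 was highest in DRF ZT0 replicate 4, the library with the highest uterine and oviduct markers (96.8 CPM, others 65.4 to 69.8, ratio 0.858). Creld2 was highest in DRF ZT4 replicate 4 (34.6 CPM, others 23.7 to 25.5, ratio 0.829) and Manf in DRF ZT16 replicate 4 (54.8 CPM, others 42.3 to 43.3, ratio 0.917). Dnajb9 was highest in DRF ZT12 replicate 4 (61.2 CPM, others 41.3 to 43.6, ratio 0.883) and NRF ZT12 replicate 1 (72.6 CPM, others 59.6 to 61.5, ratio 0.851), and lowest in DRF ZT16 replicate 1 (58.3 CPM, others 67.0 to 67.7, ratio 0.929). Dnajb11 was lowest in DRF ZT0 replicate 2, although by little (50.4 CPM, others 52.0 to 52.2, ratio 0.918).

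The fed-unfed contrast differed between regimens for Hspa5 (log2 -0.581), Manf (-0.454), Hsp90b1 (-0.357) and Dnajb11 (-0.256), DRF minus NRF, in limma. It was lower under DRF for 10.4% of all genes. The call of Hspa5 held in all 10 alternatives, and those of Manf, Hsp90b1 and Dnajb11 in 8 each. The 24-h rhythm differed between regimens for 6 of 10 members, a count near the share of all genes (54.0%). By the length of the difference between the fitted 24-h vectors, these were Sdf2l1 (0.872), Hspa5 (0.854), Manf (0.690), Creld2 (0.444), Herpud1 (0.392) and Dnajb11 (0.297).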

How the results depend on the processing

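No called member effect turned its direction under the alternatives tried, and of 79 member calls 44 held in every one and 35 were lost in at least 1. Total recovered reads as library size changed the number of members called from 7 to 4 for fed minus unfed under NRF, 4 to 2 for its difference between regimens, 5 to 1 at ZT4, 3 to 5 at ZT24, and 0 to 1 for the 24-h rhythm under DRF and for the phase shift (Dnajb11 in both). It moved the share of all calls that were higher from 51.6% to 33.5% for the mean level, 53.0% to 35.4% for fed minus unfed under NRF, 50.5% to 70.8% for the difference, 51.3% to 35.1% at ZT24 and 55.4% to 33.9% for the first 4 h of DRF food. The deposited scale, which is no log2 scale, gave 2 members in place of 5 for the mean level and 1 in place of 2 for fed minus unfed under DRF. It gave 6 in place of 7 at ZT12, 1 in place of 3 at ZT16 and 1 in place of 3 for the amplitude. Counts rose to 9 in place of 7 for the first 4 h of DRF food and to 6 in place of 5 at ZT4. The same scale moved the share of calls that were higher from 47.6% to 32.8% at ZT0 and from 55.4% to 73.1% for the first 4 h of DRF food. Without a filter 3 members passed for the mean level and 1 for fed minus unfed under DRF. For the 12-h rhythm under DRF, JTK_CYCLE alone called 1 member and the limma harmonic fit 4, and for the 24-h rhythm under DRF that fit called 1. Without the ZT24 libraries 5 members passed for the amplitude. The cause of these changes was not tested.

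Leaving out each replicate number in turn (14 mice at once), members called ranged from 1 to 5 for the mean level, 3 to 6 for fed minus unfed under NRF, 0 to 1 under DRF, 1 to 4 for their difference, 5 to 6 at ZT0, 1 to 5 at ZT4, 4 to 5 at ZT8 and at ZT12, 1 to 2 at ZT16, 2 to 4 at ZT20, 2 to 3 and 6 to 7 for the first 4 h of NRF and DRF food and 1 to 2 for the amplitude. The 24-h rhythm difference kept 6 members throughout. Calls over all genes moved too, from 5874 to between 3922 and 5374 for the mean level. They went from 5826 to between 3818 and 5638 for fed minus unfed under NRF. At ZT0 they went from 2858 to between 1204 and 3250. Replicate numbers do not pair the mice: 8 of 28 same-numbered pairs correlated over 0.1 (median 0.0191), and 7 of 28 DRF libraries were closest to their own number. The replicate block changed none of 140 member calls, and 5 members passed for the mean level with it as without it.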
